A study of Homo sapiens with 6 samples.

Results

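Cells make cholesterol from acetyl-CoA, move it between membranes, store it as esters and export it, and the 35 genes described here cover those steps in NB4 cells. They were chosen by name: 19 enzymes of synthesis, 7 genes of the SREBP control system, 4 genes of sterol transport and storage, and 5 genes of the LXR and efflux arm. Counts for 34 of the 35 were present in both deposited tables, among 12301 genes listed in both. ABCG1, of the LXR and efflux arm, was listed in neither and was not analysed. NB4 is a human acute promyelocytic leukemia line that matures towards granulocytes when exposed to all-trans retinoic acid (ATRA). The constructs in these cells were either a control construct or 1 of 2 short hairpin RNAs (shRNA1 and shRNA2, called hairpin 1 and hairpin 2 here) against SMARCD2, a subunit of SWI/SNF (BAF) chromatin remodelling complexes. Each of these 3 constructs was sequenced after the DMSO vehicle and after 1 µM ATRA, which gave 6 RNA-seq libraries with 1 library for each construct in each treatment. The labels call the DMSO libraries undifferentiated, and the length of the ATRA treatment was not given in the sources used here.

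Each library was sequenced in 2 runs, which were summed. The summed counts ran from 29291209 to 58099733 per library, and both control libraries lay at the low end. Run 1 supplied 53.1% to 54.6% of the counts in the control libraries and 70.6% to 80.7% in the knockdown libraries. SMARCD2 itself was at 95.5 CPM (counts scaled to a common library total) in control DMSO cells, 39.0 with hairpin 1 and 25.7 with hairpin 2, and at 122, 64.2 and 35.6 CPM in ATRA. The difference on the log2 scale was -1.55 ± 0.32 (SE) in DMSO and -1.29 ± 0.31 in ATRA, and neither passed the test in a fit with 1 control library a treatment (edgeR quasi-likelihood test, adjusted p = 0.39 and 0.32). Of 6 promyelocyte markers (MPO, ELANE, PRTN3, AZU1, CTSG and CD33), 5 were present in both tables, and ELANE was listed only for DMSO. The 5 had a summed level of 10183.3 to 10414.5 CPM in DMSO and 4666 to 6352 CPM in ATRA. So these markers moved with every ATRA difference given here, and their part in those differences was not tested. Markers of other cell types also moved with ATRA. The 1 of 3 erythroid markers present stood at 0.617 to 0.775 CPM in DMSO and at 6.16 to 6.70 CPM in ATRA, the 1 of 3 T lymphoid markers at 10.8 to 14.8 and 4.66 to 7.37 CPM, and the 3 of 4 epithelial markers summed to 49.0 to 54.6 and 36.9 to 46.4 CPM, none of them overlapping between treatments. The 1 of 3 B lymphoid markers overlapped, at 2.17 to 2.40 and 2.06 to 2.34 CPM, and 0 of 3 fibroblast markers were in both tables. The part of these markers in the ATRA differences was not tested either. In bulk RNA, fewer cells of a type and less RNA per cell cannot be told apart. Nothing in the labels says whether the constructs were grown as separate cultures of more than one clone, and p-values measure only the spread between these libraries.

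As background, cholesterol synthesis starts with acetyl-CoA, runs through mevalonate and the isoprenoid building blocks to squalene, and closes squalene into the first sterol, which further enzymes trim to cholesterol. The pathway is governed by SREBP transcription factors, encoded by SREBF1 and SREBF2, which are held in the endoplasmic reticulum by SCAP and the INSIG proteins when sterols are plentiful. When sterols fall, SCAP carries the SREBP to the Golgi, where proteases release its active part, and it binds sterol elements in gene promoters, commonly beside sites for the factor NF-Y. The liver X receptors (LXR), encoded by NR1H2 and NR1H3, sense oxysterols and drive genes that export cholesterol or limit its uptake. In myeloid cells, LXR-driven export is best known from macrophages, which take in cholesterol with the cells and lipoproteins they engulf and clear it through ABCA1.

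The sequences that SREBP, NF-Y and the LXR proteins are known to read were searched in the 250 bases upstream of the annotated start of each gene, and 4 windows are printed. SREBF2 is shown as the gene with the sterol element, ABCA1 as the efflux gene with an LXR repeat, and MVD and STARD4 as genes with several NF-Y boxes that were higher in ATRA. RefSeq promoters (GRCh38.p14) matched 31 of the 35 genes. Capitals mark a sterol element (TCACNCCAC) and an NF-Y box (CCAAT, or ATTGG on the other strand) in SREBF2, an LXR direct repeat with a 4-base spacer in ABCA1, and NF-Y boxes in MVD and STARD4.
SREBF2 (GRCh38.p14 chr22:41832855-41833104, plus strand): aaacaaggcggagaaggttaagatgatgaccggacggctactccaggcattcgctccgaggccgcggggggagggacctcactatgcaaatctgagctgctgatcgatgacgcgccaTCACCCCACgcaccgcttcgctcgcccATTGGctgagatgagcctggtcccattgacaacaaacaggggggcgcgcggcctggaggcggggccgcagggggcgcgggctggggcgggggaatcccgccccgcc
ABCA1 (GRCh38.p14 chr9:104928156-104928405, minus strand): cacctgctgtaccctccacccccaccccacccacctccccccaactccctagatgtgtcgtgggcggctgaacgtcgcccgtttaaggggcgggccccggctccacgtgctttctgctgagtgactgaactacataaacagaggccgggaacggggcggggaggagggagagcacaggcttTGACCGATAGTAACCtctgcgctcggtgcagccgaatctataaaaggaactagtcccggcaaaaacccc
MVD (GRCh38.p14 chr16:88663092-88663341, minus strand): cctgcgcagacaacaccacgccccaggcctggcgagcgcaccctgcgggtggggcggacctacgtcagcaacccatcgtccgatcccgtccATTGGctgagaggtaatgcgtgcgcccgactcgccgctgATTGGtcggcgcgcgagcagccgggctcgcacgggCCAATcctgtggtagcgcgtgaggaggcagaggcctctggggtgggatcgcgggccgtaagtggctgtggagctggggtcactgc
STARD4 (GRCh38.p14 chr5:111512536-111512785, minus strand): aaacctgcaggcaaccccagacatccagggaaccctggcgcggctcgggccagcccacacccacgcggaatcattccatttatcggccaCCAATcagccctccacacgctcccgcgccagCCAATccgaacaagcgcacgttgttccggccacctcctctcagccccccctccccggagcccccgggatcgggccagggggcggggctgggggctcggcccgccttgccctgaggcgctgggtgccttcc

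In these windows the sterol element of SREBF2 lay 133 to 125 bases before the start and its NF-Y box 106 to 102 bases before it. The repeat of ABCA1 lay 69 to 55 bases before the start. MVD held 3 NF-Y boxes, from 159 to 155, 120 to 116 and 85 to 81 bases before its start, and STARD4 held 2, from 161 to 157 and 130 to 126. An exact NF-Y box on either strand was present upstream of 21 of the 31 matched genes (67.7%), against 41.5% of the 9550 tested genes that had a promoter entry. By role, 14 of 16 synthesis enzymes, 2 of 7 SREBP control genes, 3 of 4 transport and storage genes and 2 of 4 LXR and efflux genes held one. The exact sterol element was in 1 of the 31 (SREBF2), against 1.2% of the tested genes, and the LXR repeat was in 2 (HMGCS1 and ABCA1), against 0.6%. The CCAAT, TCACNCCAC and repeat letters do not overlap one another in the printed windows. A match describes letters only, and no match says only that these letters are not in this window.

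The first comparison asked how ATRA changed these genes, over 3 DMSO and 3 ATRA libraries. ATRA raised 24 of the 34 measured genes and lowered 4, and the other 6 did not pass the test (edgeR quasi-likelihood test, Benjamini-Hochberg adjusted p under 0.05). Over all 12301 genes tested, 36.2% were higher and 37.8% lower, with a median log2 difference of -0.01, and the median of the 34 genes was 0.64. The higher calls were spread over the roles: 15 of 19 synthesis enzymes, 4 of 7 SREBP control genes, 3 of 4 transport and storage genes and 2 of 4 LXR and efflux genes. The lower calls were PMVK, MBTPS1, MYLIP and NR1H3. Scaling by total counts in place of TMM factors moved the median of all genes by -0.13 on the log2 scale and turned the split over all genes from 4450 higher and 4650 lower into 3637 higher and 5722 lower, and then 21 of the 34 genes were called higher and 5 lower. All values below are relative to the TMM scaling, and levels are in CPM with control, hairpin 1 and hairpin 2 in that order. Where ATRA and DMSO libraries are said to overlap or not, also for the markers above, the share of all genes without overlap was not counted.

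Among the 8 enzymes before squalene, 6 were higher in ATRA, 1 was lower and 1 did not pass the test, with a median log2 difference of 0.58. HMGCS1, the cytosolic HMG-CoA synthase that makes the substrate of the rate-limiting reductase, stood at 62.2, 81.5 and 82.1 CPM in DMSO and at 150.1, 142 and 163 CPM in ATRA. All its ATRA libraries lay above all its DMSO libraries, and the difference was 1.02 ± 0.08 on the log2 scale (adjusted p = 8.1e-06). MVK, which phosphorylates mevalonate, went from 15.7, 17.0 and 17.8 to 32.4, 34.6 and 39.5 CPM, a log2 difference of 1.07 ± 0.07 (adjusted p = 2.1e-06). MVD, the decarboxylase that makes isopentenyl diphosphate, went from 35.5, 41.6 and 39.4 to 76.0, 75.5 and 82.3 CPM, a log2 difference of 1.00 ± 0.06 (adjusted p = 9e-07). The kinase that acts between these enzymes went the opposite way. PMVK, phosphomevalonate kinase, stood at 25.3, 23.8 and 22.8 CPM in DMSO and at 17.2, 17.1 and 17.3 CPM in ATRA, a log2 difference of -0.48 ± 0.07 (adjusted p = 2.3e-04). Its 3 constructs fell by 0.56, 0.48 and 0.40, so the middle step of the mevalonate branch dropped in each construct while its neighbours on either side rose in each.

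IDI1, which interconverts the isoprenoid building blocks, rose by 0.77 ± 0.07 on the log2 scale, and ACAT2, the cytosolic thiolase of the first step, by 0.39 ± 0.06. FDPS, which makes farnesyl diphosphate, rose by 0.30 ± 0.05. GGPS1, which draws farnesyl diphosphate away to the lipid anchors of small GTPases, stood at 38.0, 38.5 and 38.3 CPM in DMSO and at 39.8, 39.4 and 36.1 CPM in ATRA. Its groups overlapped, and the difference was 0.00 ± 0.06 (adjusted p = 0.95). Counting by strand was not given in the sources used here, so reads of genes that overlap on the other strand could be shared: this applies to ACAT2, MVK and GGPS1, which overlap exons of other protein-coding genes, and to HMGCS1, IDI1 and FDPS, which overlap non-coding transcripts. FDPS also has 8 named pseudogene copies.

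Among the 11 enzymes from squalene onwards, 9 were higher and 2 did not pass the test, with a median log2 difference of 0.65. FDFT1, squalene synthase, rose from 106, 123 and 124 to 185, 178 and 189.8 CPM, a log2 difference of 0.65 ± 0.06 (adjusted p = 1.2e-05). SQLE, the epoxidase that is a second control point of the pathway, went from 28.6, 35.5 and 34.9 to 61.4, 68.5 and 72.2 CPM, a log2 difference of 1.03 ± 0.05 (adjusted p = 3.9e-07). The next enzyme did not pass the test. LSS, which closes the epoxide into lanosterol, was at 97.6, 102 and 113 CPM in DMSO and at 76.2, 94.5 and 117 CPM in ATRA, a log2 difference of -0.14 ± 0.10 (adjusted p = 0.23). The constructs differed in direction, at -0.36 in control cells, -0.12 with hairpin 1 and 0.04 with hairpin 2, and without the hairpin 2 ATRA library the difference was -0.26 (adjusted p = 0.0089).

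The enzymes that trim lanosterol mostly rose. DHCR7, which reduces the last ring double bond on one route to cholesterol, went from 27.3, 37.9 and 31.3 to 97.8, 112 and 122 CPM, a log2 difference of 1.78 ± 0.08 (adjusted p = 1.6e-07). MSMO1, the sterol methyl oxidase, went from 21.3, 31.7 and 26.3 to 65.1, 63.6 and 63.8 CPM, a log2 difference of 1.28 ± 0.11 (adjusted p = 8.1e-06). The DMSO libraries of MSMO1 were spread while its ATRA libraries lay close together. CYP51A1, lanosterol demethylase, rose by 0.91 ± 0.08, SC5D, a sterol desaturase, by 0.82 ± 0.06 and EBP, the sterol isomerase, by 0.64 ± 0.05. NSDHL and HSD17B7, of the demethylation complex, changed less, rising by 0.31 ± 0.09 and 0.21 ± 0.07 (adjusted p = 0.011 and 0.025). HSD17B7 lost its call without any 1 of 5 libraries (all but the hairpin 2 DMSO library), with adjusted p from 0.058 to 0.082, and both genes lost it with total counts. TM7SF2, a sterol reductase with a partner enzyme in the nuclear envelope, stood at 13.9, 12.2 and 11.4 CPM in DMSO and at 14.2, 11.5 and 12.5 CPM in ATRA, and its groups overlapped (0.03 ± 0.08, adjusted p = 0.78). CYP51A1 and HSD17B7 have 3 and 2 named pseudogene copies, and LSS, CYP51A1 and FDFT1 overlap non-coding transcripts on the other strand.

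**Figure D1:**
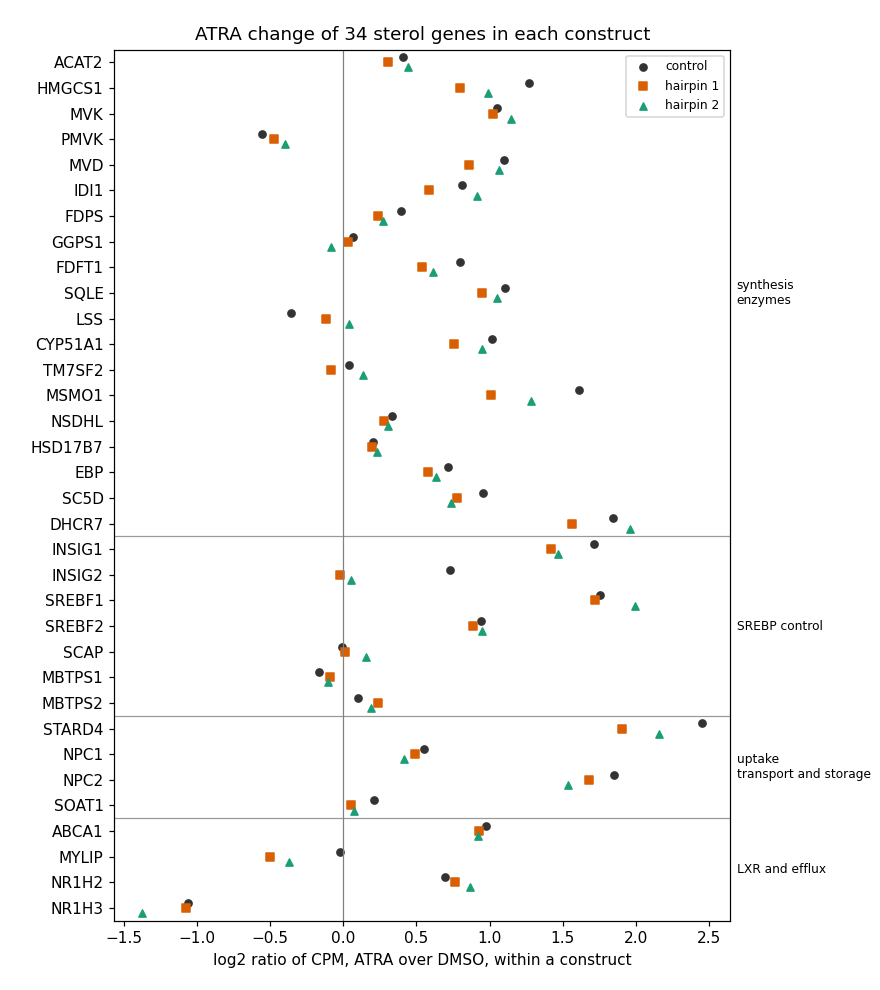
Log2 ratio of ATRA to DMSO in control cells and with hairpin 1 and hairpin 2, 1 point for each construct and 1 row for each gene, in order of role. STARD4 lies furthest right at 2.45, 1.90 and 2.15 and NR1H3 furthest left at -1.06, -1.08 and -1.37, while INSIG2 has its control point at 0.73 and its hairpin points at -0.02 and 0.05.

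In the SREBP control system, SREBF1, SREBF2 and INSIG1 had the largest differences in the fit over all constructs. SREBF1, whose product governs mainly fatty acid genes, went from 88.9, 96.8 and 81.4 to 299.7, 319 and 324 CPM, a log2 difference of 1.82 ± 0.07 (adjusted p = 6.4e-08). SREBF2, whose product governs mainly cholesterol genes, went from 186, 194 and 201 to 356, 359 and 387 CPM, a log2 difference of 0.92 ± 0.05 (adjusted p = 3.8e-07). INSIG1, which retains SCAP and is itself an SREBP target, went from 71.1, 94.4 and 106 to 233, 252 and 292 CPM, a log2 difference of 1.53 ± 0.08 (adjusted p = 5.4e-07). For each of these 3 genes every ATRA library lay above every DMSO library, and how many of all genes did so was not counted. SCAP, the escort protein, stood at 112, 115 and 107 CPM in DMSO and at 111, 116 and 119 CPM in ATRA, with overlapping groups (0.05 ± 0.05, adjusted p = 0.36). The Golgi proteases differed in direction and by little: MBTPS1 fell by 0.12 ± 0.04 and MBTPS2 rose by 0.18 ± 0.07 on the log2 scale (adjusted p = 0.026 and 0.035). MBTPS1 lost its call without any 1 of 5 libraries (all but the hairpin 2 DMSO library; adjusted p 0.061 to 0.11). MBTPS2 lost it without the hairpin 1 ATRA library (adjusted p = 0.16), without the hairpin 2 DMSO library (adjusted p = 0.11), with total counts and with run 1 alone. INSIG2, the second INSIG protein, did not pass the test over all constructs (0.24 ± 0.13, adjusted p = 0.12). In control cells alone INSIG2 rose by 0.73, between 1 DMSO and 1 ATRA library, so the spread of control cells was not measured. Its constructs are compared with the interaction test. SREBF1 overlaps exons of another protein-coding gene and SREBF2 a non-coding transcript, both on the other strand.

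Transport and storage held the gene with the largest ATRA difference of the 34. STARD4, a soluble carrier that moves cholesterol between membranes, went from 11.8, 17.4 and 16.5 to 64.9, 65.3 and 73.5 CPM, a log2 difference of 2.15 ± 0.10 (adjusted p = 1.7e-07). NPC2, which lifts cholesterol from lysosomal vesicles, went from 12.6, 15.1 and 16.8 to 45.5, 48.2 and 48.7 CPM, a log2 difference of 1.68 ± 0.08 (adjusted p = 1.8e-07). Its membrane partner NPC1 rose less, from 40.6, 40.0 and 44.4 to 59.4, 56.1 and 59.2 CPM (0.48 ± 0.06, adjusted p = 1e-04). SOAT1, which esterifies cholesterol for storage, stood at 50.7, 53.0 and 53.8 CPM in DMSO and at 58.6, 54.9 and 56.6 CPM in ATRA. Its groups did not overlap, and the difference of 0.11 ± 0.05 did not pass the test (adjusted p = 0.084). NPC1 and NPC2 overlap exons of other protein-coding genes and STARD4 a non-coding transcript, on the other strand.

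The 4 measured genes of the LXR and efflux arm split evenly. ABCA1, the transporter that loads cholesterol onto apolipoprotein, went from 74.7, 90.6 and 83.6 to 147, 172 and 158 CPM, a log2 difference of 0.94 ± 0.05 (adjusted p = 7.8e-07). NR1H2, encoding LXR beta, rose from 44.0, 45.0 and 40.5 to 71.2, 76.3 and 73.9 CPM (0.77 ± 0.06, adjusted p = 4.3e-06). NR1H3, encoding LXR alpha, went the other way, from 17.1, 17.0 and 18.4 to 8.22, 8.04 and 7.09 CPM, a log2 difference of -1.17 ± 0.09 (adjusted p = 6.8e-06). So the 2 receptor genes moved in opposite directions with every construct. MYLIP, an LXR target whose ubiquitin ligase marks lipoprotein receptors for degradation, stood at 119, 142 and 144 CPM in DMSO and at 118, 101 and 111 CPM in ATRA (-0.30 ± 0.08, adjusted p = 0.011). The log2 ratio for MYLIP was -0.50 and -0.37 with the hairpins and -0.02 in control cells, and the call was lost without the hairpin 1 ATRA library (adjusted p = 0.055) or the hairpin 1 DMSO library (adjusted p = 0.054). NR1H3 overlaps exons of another protein-coding gene on the other strand.

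Neighbouring pathways were read from lists of other genes, beside 36.2% higher and 37.8% lower over all genes tested. Of 13 genes of SREBP-driven fatty acid synthesis, 9 were higher in ATRA, 1 was lower and 3 did not pass the test, with a median log2 difference of 0.68. The 3 that did not pass were FASN (-0.05 ± 0.06), ACLY (0.06 ± 0.05) and MID1IP1 (0.06 ± 0.05). FADS2, a fatty acid desaturase, rose by 1.84 ± 0.08, ELOVL6, an elongase, by 1.77 ± 0.08 and ACSL3, an acyl-CoA synthetase of lipid droplets, by 1.31 ± 0.05. ME1, a cytosolic source of NADPH, fell by 0.87 ± 0.15 on the log2 scale. Of 11 genes on the isoprenoid side branches, 4 were higher, 2 lower and 5 did not pass the test, with a median of 0.08. The higher calls of this list were near the share of all genes. PGGT1B, the catalytic subunit that attaches geranylgeranyl groups, rose by 1.00 ± 0.07, and the dolichol enzyme DHDDS by 0.39 ± 0.08 and RABGGTA, of the Rab prenyltransferase, by 0.48 ± 0.07. FNTB and FNTA, the subunits of the farnesyltransferase, fell by 0.87 ± 0.05 and 0.14 ± 0.06. Of 20 further genes of sterol movement, storage and oxysterols, 16 were tested: 8 were higher, 3 lower and 5 did not pass, with a median of 0.39. LIPA, the lysosomal lipase that frees cholesterol from esters, went from 91.9, 104 and 116 to 839.5, 926 and 919.8 CPM, a log2 difference of 3.11 ± 0.06 (adjusted p = 2.6e-09). ABCA7, a lipid transporter, rose by 2.06 ± 0.06 and CYP27A1, a mitochondrial oxysterol-forming enzyme, by 1.78 ± 0.19. CYP27A1 was at a low level, from 1.07 to 1.34 CPM in DMSO and from 3.67 to 5.21 CPM in ATRA. SCARB1, a lipoprotein receptor, fell by 1.15 ± 0.05, OSBPL1A by 0.88 ± 0.07 and GRAMD1A, a carrier at membrane contacts, by 0.45 ± 0.06.

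The second comparison asked whether lowering SMARCD2 changed these genes in DMSO. None of the 34 passed the test, and none of the 12301 genes did (0.0% called, edgeR quasi-likelihood test), while DESeq2 called 32 of all genes higher and 6 lower and limma-voom called 0. It was a design with 1 control library against 2 hairpin libraries. At an unadjusted p under 0.05, 13 of the 34 were higher and 0 lower, against 3.98% of all genes that were higher by that rule. The log2 difference was above 0 for 26 and below 0 for 8, with a median of 0.15 against 0.00 for all genes. Both hairpin libraries lay above the control for 22 of the 34, against 35% of all genes. By role these were 14 of 19 synthesis enzymes, 3 of 7 SREBP control genes, 3 of 4 transport and storage genes and 2 of 4 LXR and efflux genes. The median over the 34 genes was 0.13 for hairpin 1 and 0.15 for hairpin 2, each against the same control library, which all these values share.

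The 8 genes with the largest differences were all higher in the knockdown. STARD4 differed by 0.52 ± 0.11 on the log2 scale (unadjusted p = 0.0020, adjusted p = 0.44) and INSIG1 by 0.49 ± 0.11 (unadjusted p = 0.0022, adjusted p = 0.45). The levels given above show how: the control library of each was the lowest of the 3 in DMSO, at 11.8 CPM for STARD4 and 71.1 CPM for INSIG1. MSMO1 differed by 0.45 ± 0.12 (unadjusted p = 0.0064), HMGCS1 by 0.39 ± 0.09 (0.0030), CYP51A1 by 0.36 ± 0.13 (0.024) and DHCR7 by 0.35 ± 0.12 (0.026). NPC2 and INSIG2 each differed by 0.33 (± 0.11 and ± 0.08), with unadjusted p of 0.015 and 0.0034. The control libraries took a larger share of counts from run 2, and the runs were also fitted apart. With run 1 and then run 2 alone the difference was 0.62 and 0.44 for STARD4 and 0.53 and 0.42 for INSIG1. For MSMO1 it was 0.42 and 0.48 and for HMGCS1 0.35 and 0.49. Both runs come from the same libraries, so these fits do not measure the spread between libraries. The part of the run shares in these differences was not tested. DESeq2 called 1 of the 34 genes, INSIG1 (adjusted p = 0.0081), and limma-voom called 0. Each hairpin was sequenced in both treatments, and a fit with the hairpin as a replicate block, which takes the difference between hairpins out of the spread and keeps 1 residual degree of freedom, called 4 of the 34 higher: INSIG1 (adjusted p = 0.0022), HMGCS1 (0.021), STARD4 (0.037) and CYP51A1 (0.037). Over all genes 85 were called higher and 31 lower with the replicate block. The authors' deposited table for DMSO gave adjusted p under 0.05 to HMGCS1, CYP51A1, MSMO1, INSIG1, INSIG2, STARD4 and MYLIP. The log2 differences in the authors' deposited table were 0.38 for INSIG1 and 0.35 for HMGCS1, each with an adjusted p of 8.61e-05, and 0.33 for STARD4 with 0.028. No source used here says whether that test counted the runs of a library as replicates. The authors' p-values may therefore not measure the spread between libraries, and they come from the same libraries as the fits above.

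The same question in ATRA also gave 0 of the 34 genes past the test with edgeR, DESeq2 and limma-voom, where edgeR called 0.00813% of all genes. At an unadjusted p under 0.05, 2 were higher and 1 lower, together 3 of 34, against 10.8% of all genes in either direction. The median log2 difference was 0.03, with 21 genes above 0 and 13 below, and both hairpin libraries lay above the control for 16 of 34, against 39.2% of all genes. LSS was higher by 0.47 ± 0.13 (unadjusted p = 0.0069, adjusted p = 0.34) and SQLE by 0.20 ± 0.07 (unadjusted p = 0.032). LSS was at 76.2 CPM in the control, 94.5 CPM with hairpin 1 and 117 CPM with hairpin 2. INSIG2 was lower by 0.39 on the log2 scale (-0.39 ± 0.07, unadjusted p = 9.0e-04, adjusted p = 0.25). With the hairpin as a replicate block both were called (LSS adjusted p = 0.0039, INSIG2 0.016). The authors' deposited table for ATRA gave LSS 0.36 with an adjusted p of 0.0055 and INSIG2 -0.33 with 0.0023. How that test treated the runs is not known here either. The rest of the 8 largest differences were 0.26 ± 0.11 for DHCR7, -0.25 ± 0.13 for TM7SF2, 0.22 ± 0.10 for INSIG1, 0.21 ± 0.12 for CYP51A1 and 0.19 ± 0.11 for MVK, with unadjusted p from 0.055 to 0.13. Several of these rest mostly on hairpin 2. Without the hairpin 1 or the hairpin 2 ATRA library, CYP51A1 differed by 0.36 or 0.039 and INSIG1 by 0.32 or 0.11. In the same order MVK differed by 0.28 or 0.088. LSS differed by 0.61 or 0.30, and both its hairpin libraries lay above the control.

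Over both treatments in 1 fit, 0 of the 34 genes passed the test with edgeR, DESeq2 or limma-voom, and edgeR called 0.0% of all genes, where DESeq2 called 20 higher and 28 lower. At an unadjusted p under 0.05, 10 were higher and 1 lower, against 4.15% of all genes higher by that rule, and the median was 0.07. INSIG1 differed by 0.35 ± 0.09 (unadjusted p = 0.0037, adjusted p = 0.48), SQLE by 0.24 ± 0.06 (unadjusted p = 0.0024, adjusted p = 0.46) and DHCR7 by 0.30 ± 0.08 (unadjusted p = 0.0069). LSS differed by 0.30 ± 0.10, CYP51A1 by 0.28 ± 0.09, STARD4 by 0.27 ± 0.10, NPC2 by 0.20 ± 0.08 and TM7SF2 by -0.24 ± 0.09. These values average over treatments that differ, and they depend on which control library is kept: without the DMSO or the ATRA control library the difference was 0.093 or 0.52 for STARD4, 0.089 or 0.33 for NPC2, 0.47 or 0.15 for LSS and 0.22 or 0.49 for INSIG1. With both hairpins and in both treatments, 12 of the 34 lay above the control: ACAT2, MVK, IDI1, SQLE, LSS, CYP51A1, DHCR7, INSIG1, SREBF2, STARD4, NPC2 and ABCA1. The share of all genes with that pattern was 14.6%.

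The difference in the ATRA response between knockdown and control was tested as an interaction. None of the 34 genes passed with edgeR or limma-voom, where edgeR called 0.0488% of all genes, and DESeq2 called 1 of the 34, INSIG2. The difference was below 0 for 25 of the 34 and above 0 for 9, with a median of -0.09. Over all genes it was below 0 for 6142 and above 0 for 6159, with a median of 0.00. The DMSO control library enters each of these values and also each knockdown difference in DMSO. An unadjusted p under 0.05 was reached by 5 of the 34 in the lower direction and 0 in the higher, against 4.38% of all genes in the lower direction. INSIG2 had the largest of these differences. Its control library rose from 36.5 to 60.6 CPM with ATRA, while hairpin 1 went from 46.9 to 46.2 CPM and hairpin 2 from 44.6 to 46.2 CPM. The ATRA difference was 0.73 ± 0.09 in control cells and 0.01 ± 0.06 in knockdown cells, so the response differed by -0.72 ± 0.11 (unadjusted p = 2.0e-04, adjusted p = 0.11). Leaving out each hairpin library in turn gave -0.70 to -0.76 (adjusted p 0.099 to 0.49), and run 1 and run 2 alone gave -0.67 and -0.71. DESeq2 gave an adjusted p of 0.021 and the replicate block 0.0050. The value for INSIG2 rests on 1 control library in each treatment, and both runs come from those same libraries.

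The other 4 with an unadjusted p under 0.05 were MSMO1, STARD4, HMGCS1 and MYLIP. MSMO1 differed by -0.48 ± 0.16 (unadjusted p = 0.019), STARD4 by -0.42 ± 0.15 (0.021) and HMGCS1 by -0.38 ± 0.13 (0.019). For these 3 genes the knockdown and control libraries differed by less in ATRA, at -0.03 ± 0.11, 0.10 ± 0.09 and 0.02 ± 0.09, than in DMSO, and the DMSO control library enters both values. MYLIP differed by -0.41 ± 0.11 (unadjusted p = 0.0057, adjusted p = 0.42): its hairpin libraries were above the control in DMSO and below it in ATRA. LSS at 0.32 ± 0.18, INSIG1 at -0.27 ± 0.15 and NPC2 at -0.24 ± 0.14 complete the 8 largest, with unadjusted p above 0.05.

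The last comparison set hairpin 2 against hairpin 1, since hairpin 2 left less SMARCD2 (-0.73 ± 0.07 on the log2 scale, adjusted p = 3.0e-06). It used the 4 knockdown libraries and 1 residual degree of freedom, and 2.03% of all genes passed. Of the 34 genes 1 passed, LSS, which was higher with hairpin 2 by 0.23 ± 0.06 (adjusted p = 0.041). LSS was at 102 and 113 CPM with hairpin 1 and hairpin 2 in DMSO and at 94.5 and 117 CPM in ATRA. The call was not made by DESeq2 (adjusted p = 0.65) or with run 1 alone (0.050). CYP51A1 was higher by 0.22 ± 0.06 (adjusted p = 0.056) and INSIG1 by 0.19 ± 0.06 (0.082), and neither passed. The other differences among the 8 largest were 0.18 ± 0.10 for NSDHL, 0.15 ± 0.06 for ACAT2, 0.14 ± 0.08 for MVK, -0.14 ± 0.07 for MBTPS2 and -0.12 ± 0.07 for MSMO1.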

How the data were processed

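Total RNA of NB4 cells was made into 6 libraries, and the authors sequenced each library in 2 runs and deposited whole-number counts per gene and run in 2 tables, 1 for each treatment. The submitters' processing notes name bcl2fastq, STAR, Picard 2.5.0, DESeq2 and GRCh37.p13, but no source used here names a counting tool or a strand setting. The deposited tables also hold the authors' own log2 fold changes and p-values, which were copied where named, and 12 columns of normalized values, which were not used. No source used here says how that test treated the runs.

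Counts of the 2 runs were summed per library. The tables list 12752 genes for DMSO and 12838 for ATRA, 12301 in both, and only the last were tested; each table may list only genes with counts in it. CPM values use TMM-scaled totals. edgeR 4.0.16 (R 4.3.3) was run with filterByExpr, TMM and glmQLFTest: the ATRA and both-treatment comparisons used treatment and knockdown state (3 residual degrees of freedom), the single-treatment and interaction comparisons used 4 groups (2), and the hairpin comparison used 4 libraries (1). Hairpins served as the replicates of the knockdown. The labels give each construct in both treatments. Over 9467 genes the deviations of a construct correlated between treatments at r = 0.08 (control), 0.19 (hairpin 1) and 0.21 (hairpin 2). Each was above its r with the other constructs. The control's r was under the threshold of 0.1 set for pairing, so the block was kept as an alternative. Knockdown calls depend on this choice: in DMSO the main fit called 0 of all genes and the block 85 higher and 31 lower. A call is a Benjamini-Hochberg adjusted p under 0.05 over all genes tested; ± is the standard error. Alternatives were DESeq2 1.42.0, limma 3.58.1 (voom), DESeq2 size factors, total counts, no filter, each run alone, a replicate block and each library left out; the procedure was tested on simulated data. The ATRA text names every gene. Knockdown, interaction and hairpin texts name the 8 largest differences and any call, and each neighbouring list its 3 highest and 3 lowest calls. The fatty acid list also names its genes without a call. The genes, lists and rules were chosen with earlier results of these data known. Overlapping genes and pseudogene copies were read from GENCODE annotation and promoters from RefSeq GRCh38.p14, neither being the authors' build.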

Additional observations from a re-analysis of the deposited data

How the results depend on the processing

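The calls for ATRA were 24 higher and 4 lower of 34 with DESeq2, limma-voom, DESeq2 size factors, no filter and the replicate block. Without each library in turn they were 22 to 23 higher and 2 to 4 lower; the 2 lower calls came without the hairpin 1 DMSO or hairpin 1 ATRA library. Genes near 0 changed sign: GGPS1 was -0.043 with run 2 only, -0.13 with total counts and -0.025 to 0.051 without each library; with total counts TM7SF2 was -0.10, SCAP -0.077 and SOAT1 -0.019, and without each library TM7SF2 was -0.0069 to 0.066. With total counts LSS was called lower (-0.27, adjusted p = 0.038), and with run 2 only INSIG2 was called higher (0.37, adjusted p = 0.021). For the knockdown in DMSO, 1 gene was called higher by DESeq2 and 4 with the replicate block (INSIG1, HMGCS1, STARD4 and CYP51A1). Over all genes that comparison gave 0 calls, 20 higher and 1 lower without the hairpin 1 DMSO library, and 85 higher and 31 lower with the replicate block. With the replicate block in ATRA, 1 was called higher (LSS) and 1 lower (INSIG2), and for the interaction 1 was lower (INSIG2), as it was with DESeq2. Without each hairpin library in turn, the calls among the 34 for the knockdown in DMSO, in ATRA and for the interaction were 0 to 0; a control library cannot be left out there, since it is the only one of its treatment. Over both treatments, where controls were left out too, they were 0 to 0. For hairpin 2 against hairpin 1 the higher calls were 0 with DESeq2, 2 with DESeq2 size factors, 2 with run 2 only, 2 with total counts and 3 with limma-voom; leaving out a library there leaves no residual degrees of freedom and was not run. For the both-treatment comparison the replicate block was added after seeing the data and gave 0 calls; it changed no other call among the genes named. With 1 control library per treatment, the spread of the controls is assumed to equal that between hairpins.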
